A study of Mus musculus with 12 samples.

Results

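Recovery of control microglia from oxygen-glucose deprivation (OGD) was followed in 6 of the 12 libraries of the series. They were chosen by their titles: 3 libraries came from cells taken straight after 6 hours of OGD, and 3 from cells given 1 further day of recovery. All 6 libraries were labelled with the genotype Cx3cr1EGFP, a reporter at the locus of the fractalkine receptor Cx3cr1, with Slc2a5 intact. The labels did not say whether 1 or both copies of Cx3cr1 carried the reporter. The mice were labelled male and P35-P40, while the extraction protocol gave postnatal days 30 to 45. Brain cells were dissociated with papain, spun through a density gradient and prepared for sorting, and the sources used here do not describe the culture or how OGD was applied. The remaining 6 libraries came from Slc2a5-/-::Cx3cr1EGFP cells under the same 2 conditions. Slc2a5 encodes the fructose transporter GLUT5, and these libraries serve below for comparison with the control response. They also entered the model fit, so they share in the estimate of spread behind each p-value. No library of cells kept without OGD was analysed here, so each difference is between recovery and the end of deprivation, not between recovery and an undisturbed state. The labels did not say whether replicates were separate animals or cultures, so p-values measure the spread between these libraries, which may be technical.

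Microglia are the resident macrophages of the brain. They survey the tissue through purine and chemokine receptors, clear debris, and present antigen when activated. A cell that loses oxygen stabilises the hypoxia-inducible factor HIF, which turns on genes of glucose uptake, glycolysis and vessel growth. A cell short of amino acids or burdened with unfolded protein slows translation and makes the transcription factor ATF4, which turns on amino acid import, amino acid synthesis and tRNA charging. Both programmes are reversible, and OGD with later return to normal medium is a culture model of ischaemia followed by reperfusion.

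Total counts were 32426683 to 45347118 in the OGD libraries and 9885259 to 15495478 in the recovery libraries, so low genes had the wider error after recovery. Several library features moved with recovery. The mitochondrial genome gave 4.94% to 5.75% of counts after OGD and 7.35% to 18.4% after recovery, with the highest share in recovery replicate 1. That library was also the shallowest, and its treatment field read as OGD alone, against a title and library name that gave recovery (the title was followed). Cmss1 was at 2250 to 2975 CPM in the OGD libraries and 66.9 to 106 CPM in the recovery libraries. Gm42418 was at 2805 to 4089 CPM and then 802 to 2412 CPM. In the knockout Cmss1 went from 3338 to 5924 CPM to 60.9 to 134 CPM, while the ranges of Gm42418 overlapped. Xist, the RNA of the inactive X chromosome, had 5111 to 7656 counts in the OGD libraries and 0 to 3 in the recovery libraries, whereas the Y-linked gene Ddx3y was at 37.9 to 49.7 CPM in all 6. The Xist counts of the OGD libraries go against their label, and the sex of the cells cannot be told apart from recovery. Genes on X and Y were left out. In the knockout, also labelled male, Xist had 4101 to 10232 counts in every library, so both sides of the recovery change were Xist-positive. These markers still moved there. Xist was at 231 to 244 CPM after OGD and 312 to 354 CPM after recovery. Ddx3y was at 21.5 to 29.2 CPM and then 14.7 to 21.5 CPM. The knockout thus did not hold them constant, and its values are given beside some of the results. The part of these library features in the results was not tested.

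The microglia label was checked against 12 markers. The markers summed to 2697 to 2740 CPM after OGD and 3742 to 5085 CPM after recovery, where CPM is counts scaled to a library of 1e+06, a scale that does not correct for gene length. Csf1r, C1qa, Trem2 and Itgam were abundant. Siglech was at 0 in all 6 libraries. Tmem119, a marker of microglia in the intact brain, was nearly absent, at 0.220, 0.0295 and 0.104 CPM after OGD and 2.74, 2.14 and 1.77 CPM after recovery. In bulk RNA, fewer cells of a type and less RNA per cell cannot be told apart.

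Of 18165 autosomal genes tested, 4879 were higher after recovery (26.9%) and 5443 were lower (30.0%), 56.8% in all, by edgeR's quasi-likelihood test at an adjusted p below 0.05. All adjusted p-values here are from that test with Benjamini-Hochberg adjustment over all genes. At least 2-fold changes were called up in 2229 genes (12.3%) and down in 1970 (10.8%). The median log2 fold change was -0.03, and 9 in 10 genes lay between -1.72 and 1.99. Without recovery replicate 1 the counts were 4540 higher and 5104 lower. In 67.0% of the genes the values of the 2 groups did not overlap, with recovery higher in 31.4% and lower in 35.6%. These percentages are the background against which each gene list below is to be read. In every gene whose 6 values are given, the groups did not overlap unless an overlap is stated. A ± after a log2 fold change is its standard error, and after a CPM mean the SD over 3 libraries. Reads cannot be told apart from those of a gene with an overlapping body for Akr1b3, B2m, Bhlhe41, C77080, Ccl2, Cd274, Cdkn1c, Cdt1, Cebpb, Cox6c, Ctsd, Cx3cr1, Dusp1, Ebf3, Fcgr2b, Gadd45a, H2-DMa, Hif1a, Hspa1a, Igsf5, Il18, Il1a, Il1b, Itgam, Jun, Junb, Lhfpl3, Map1lc3b, Ndrg1, Nnat, Npc1, Optn, P2ry12, P2ry13, Pcp4, Pcx, Pdcd1lg2, Pfkm, Pkm, Psmb8, Psmb9, S100a4 and Slc2a1.

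**Figure D1:**
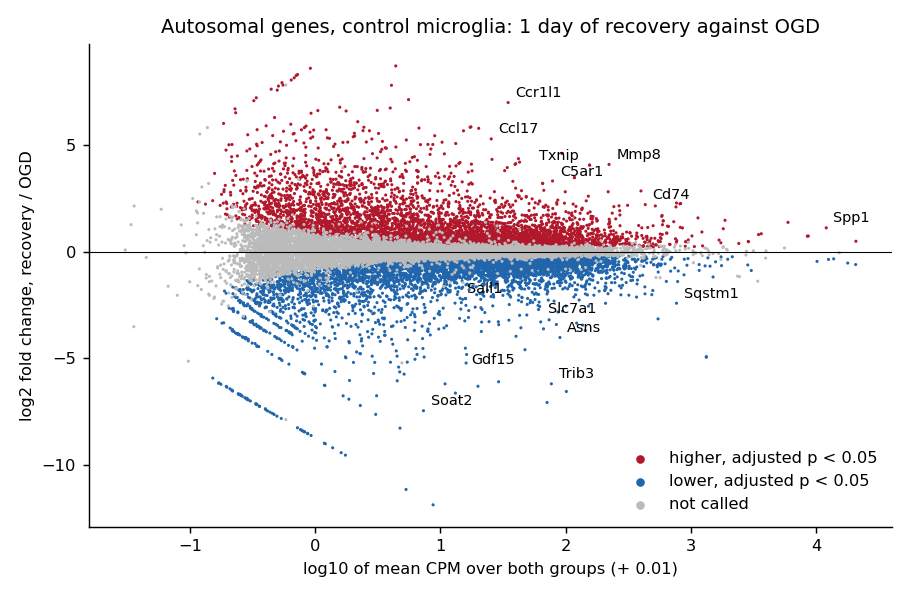
Change of each autosomal gene in control microglia. The horizontal axis is the log10 of the mean CPM over both groups and the vertical axis the log2 fold change of recovery over OGD, 1 point per gene, coloured where the adjusted p was below 0.05. Called genes fill both sides at all levels, with Ccr1l1 and Ccl17 among the largest rises and Soat2 and Trib3 among the largest falls.

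The largest rises among genes that reached a mean of at least 10 CPM were of genes nearly silent at the end of OGD. Ccr1l1, a chemokine receptor-like gene of the Ccr cluster (GRCm38, chr9:123977243-123978408), was at 0.634, 0.325 and 0.624 CPM after OGD and 50.4, 73.5 and 82.8 CPM after recovery (log2 fold change 6.99 ± 0.25, adjusted p = 2.37e-10). Every control recovery library was far above every control OGD library. Ccl22 and Ccl17 encode ligands of the receptor CCR4. Ccl22 was at 0.610, 0.354 and 1.08 CPM after OGD and 65.8, 29.1 and 24.4 CPM after recovery (5.78 ± 0.53, adjusted p = 7.35e-06). Ccl17 was at 1.05, 0.915 and 1.77 CPM after OGD and 46.5, 45 and 57.5 CPM after recovery (5.28 ± 0.41, adjusted p = 1.49e-06). None of these 3 genes was called in the knockout, where the changes were 0.18 for Ccr1l1, 0.72 for Ccl22 and 0.82 for Ccl17. Ccr1l1 was already high there at the end of OGD, at 129, 114.7 and 132.3 CPM, above every control recovery library. The lectin Mgl2 rose from 0.565 ± 0.165 to 20.1 ± 6.63 CPM (5.13), although 22.1% of its transcript sequence recurs in other genes, chiefly Clec10a. The other large rises were genes better known outside macrophages: Col3a1, a fibrillar collagen (7.12), the matrix protein gene Crtac1 (5.79), Lhfpl3 (5.66), the channel subunit gene Cacng4 (5.43), Brinp1 (5.23), Nnat (5.07) and the overlapping pair Pcp4 (5.85) and Igsf5 (5.83). Cacng4, for one, went from 0.439, 0.354 and 0.416 CPM after OGD to 14.5, 20.7 and 17.6 CPM after recovery.

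Txnip, chosen after its values were seen, encodes a thioredoxin-binding protein that limits glucose uptake and is induced by glucose. It was at 18.6, 17.8 and 16.5 CPM after OGD and 282, 286 and 310 CPM after recovery (log2 fold change 4.05 ± 0.09, adjusted p = 9.50e-14). The 3 recovery libraries lay close together and far above OGD, and the change in the knockout was 4.53. Its body overlaps that of the predicted gene Gm15441, so their reads cannot be told apart.

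Trib3, which encodes a pseudokinase induced by ATF4, was among the largest falls. It was at 147, 159 and 148 CPM after OGD and 3.77, 1.71 and 1.26 CPM after recovery (-6.20 ± 0.35, adjusted p = 1.02e-07). Soat2, an enzyme of cholesterol esterification, had 1780 counts over the 3 OGD libraries and 3 over the 3 recovery libraries, a 187-fold fall after scaling for depth, with a 95% exact interval of 63.7-fold to 905-fold that covers counting error only. Efcc1 fell from 10.1 ± 1.88 to 0.204 ± 0.120 CPM and Ebf3, a developmental transcription factor, from 31.2 ± 3.85 to 0.845 ± 0.226 CPM. C77080 (-7.08), whose body overlaps Yars, and the cell-cycle inhibitor Cdkn1c (-6.21) fell as far. The class I gene H2-Q1 fell (-6.64), a call lost under 6 of 21 alternatives, and its sequence recurs in other class I genes. The small RNA and predicted genes Gm24245, Gm44732, Gm23935, Gm7008 and Gm11175 completed the falls. Gm44732 overlaps Cdkn1c, so these are not 2 separate falls, and Gm23935, Gm7008 and Gm11175 overlap Zc3h7a, Ifrd1 and Jund.

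**Figure D2:**
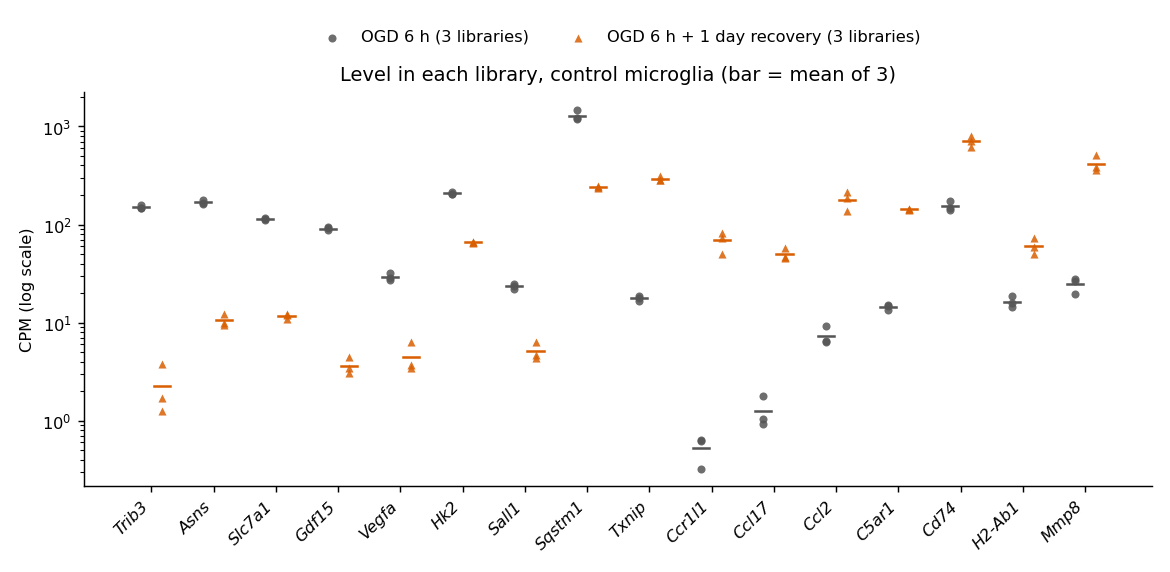
Level of 16 genes in each of the 6 control libraries, in CPM on a log axis. Grey circles are OGD libraries, orange triangles recovery libraries and bars the mean of 3. In all 16 genes the 2 groups do not overlap, with the first 8 genes lower and the last 8 higher after recovery.

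ATF4 targets fell almost as a block. Of 22 members tested, 19 fell and none rose, with a median log2 fold change of -1.91 against -0.03 over all genes. The 3 not called were Aldh1l2, Nupr1 (-0.55) and Vldlr (0.55). The members summed to 3775 to 4084 CPM after OGD and 967 to 1192 CPM after recovery. In the knockout 20 of the 22 fell, with a median of -2.23.

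The promoters of 4 of the fallen genes are shown because each holds the response element bound by C/EBP and ATF factors, searched as TGATGNAAN on both strands. The sequences are RefSeq promoter stretches (build GRCm38.p6) upstream of the annotated start, 5′ to 3′ along the gene, with the matches in capitals.
Atf3: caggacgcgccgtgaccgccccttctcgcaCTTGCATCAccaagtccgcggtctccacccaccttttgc
Chac1: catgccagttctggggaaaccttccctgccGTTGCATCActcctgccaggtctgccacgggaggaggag
Asns: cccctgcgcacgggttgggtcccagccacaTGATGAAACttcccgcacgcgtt
Slc7a11: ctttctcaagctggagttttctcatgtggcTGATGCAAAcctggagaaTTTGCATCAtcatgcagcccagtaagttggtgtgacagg
They lie at chr1:191183406-191183474 (minus strand), chr2:119351018-119351086 (plus strand), chr6:7693210-7693262 (minus strand) and chr3:50443623-50443709 (minus strand). The first match starts 111 bases before the start of Atf3, 194 before that of Chac1, 23 before that of Asns and 66 before that of Slc7a11, which holds 2. In windows from 250 bases before to 50 after the start, 7 of the 20 ATF4 targets with a RefSeq promoter held a match (35%), compared with 4.5% of 27025 genes. The 7 were these 4 with Trib3, Nupr1 and Vldlr, so in the fit of all 12 libraries the match did not separate members that fell from those not called. In a fit of the 6 control libraries alone both Nupr1 and Vldlr were called, Nupr1 lower (-0.52) and Vldlr higher (0.6).

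The genes behind these promoters differed in the size of their fall. Chac1, which degrades glutathione, was at 30.1, 32.3 and 31.3 CPM after OGD and 1.71, 0.977 and 0.814 CPM after recovery (-4.83 ± 0.30, adjusted p = 3.67e-08). Asns, the asparagine synthetase, was at 167, 179 and 162 CPM after OGD and 12.3, 9.83 and 9.39 CPM after recovery (-4.03 ± 0.13, adjusted p = 1.47e-11). Slc7a11, the cystine importer, fell less (-1.61 ± 0.42), and Atf3, a stress-induced transcription factor, least (-0.80 ± 0.10). Outside this set, Slc7a1, an importer of arginine and lysine, was at 115, 112 and 117 CPM after OGD and 12.3, 11 and 11.8 CPM after recovery (-3.30 ± 0.08, adjusted p = 3.59e-13). The OGD and recovery groups lay far apart with little spread in either. Mthfd2, an enzyme of mitochondrial one-carbon metabolism, fell from 154 ± 1.39 to 14.3 ± 0.730 CPM (-3.42), and Psat1 of serine synthesis from 129 ± 2.26 to 47.1 ± 1.69 CPM (-1.46).

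Genes that charge tRNA followed. Of 20 cytosolic aminoacyl-tRNA synthetases, 15 fell and 1, Farsa, rose (0.28), with a median of -1.03. Aars, for alanine, was at 423, 460 and 445 CPM after OGD and 121, 97.6 and 107 CPM after recovery (-2.03 ± 0.11, adjusted p = 1.04e-09). Eprs, for glutamate and proline, fell by a like amount (-1.98 ± 0.09), Lars by less (-1.49 ± 0.08) and Nars by less again (-1.29 ± 0.07). In the list Hars, Kars, Qars and Farsb were not called. The call of Farsa was lost without the filter on low counts (0.23). The median in the knockout was -1.0.

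**Figure D3:**
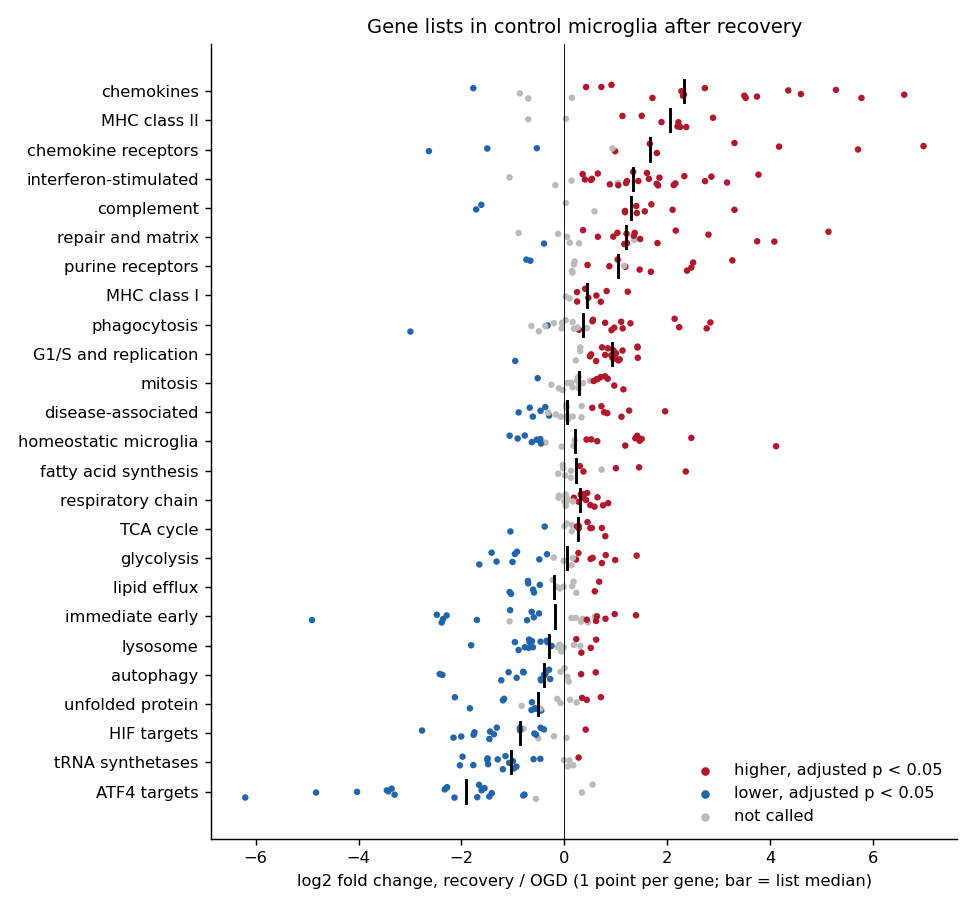
Change of the members of 25 gene lists in control microglia. The horizontal axis is the log2 fold change of recovery over OGD, each point is 1 gene, coloured where the adjusted p was below 0.05, and black bars are list medians. ATF4 targets have the lowest median and chemokines the highest.

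HIF targets were lower after recovery. Of 20 members, 15 fell and 1 rose, with a median of -0.86. Vegfa, the vessel growth factor, was at 28.2, 32.1 and 27.3 CPM after OGD and 6.28, 3.66 and 3.48 CPM after recovery (-2.77 ± 0.25, adjusted p = 9.39e-07). Ddit4, an inhibitor of mTORC1, fell from 11.7 ± 0.737 to 2.58 ± 0.511 CPM (-2.15). The endoplasmic reticulum oxidase Ero1l (-2.00), the histone demethylase Kdm3a (-1.75) and Ndrg1 (-1.76) fell by a factor of more than 3. Higd1a, a mitochondrial membrane protein, was the member that rose (0.42), and 11.9% of its transcript sequence recurs in copies. The transcript of Hif1a itself fell from 134 ± 13.6 to 60.7 ± 4.58 CPM (-1.14 ± 0.13, adjusted p = 3.26e-06). In the knockout 17 HIF targets fell and none rose. The letters of the hypoxia response core, ACGTG or GCGTG on either strand, were found in all 17 of the HIF targets with a RefSeq window. A match was also found in 46.7% of 27025 genes. The 17 included Higd1a, which rose, and Adm, P4ha2, Car9 and Fam162a, which were not called. The match thus did not separate members that fell from the others.

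Glycolysis did not move in 1 direction. Of 20 genes, 8 rose and 8 fell. Hk2, the inducible hexokinase, was at 213, 207 and 204 CPM after OGD and 64.5, 67.1 and 66.6 CPM after recovery (-1.65 ± 0.09, adjusted p = 1.23e-09). Pfkfb3, which makes the activator of phosphofructokinase (-1.32), the phosphofructokinase gene Pfkl (-1.01), Pgam1 (-0.96) and the glucose transporter gene Slc2a1 (-0.92) also fell. Pfkm (1.41), Aldoc (0.99), Pfkfb4 (0.81) and Pkm (0.73) rose. Pgam1 and Pkm have many near copies, which hold 55.9% and 33.9% of their transcript sequence.

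The pentose phosphate pathway, which supplies NADPH, was mostly higher, with 5 of 7 genes rising and 1, Pgls, falling (-0.69). H6pd (0.95), Pgd (0.80), Tkt (0.56) and Taldo1 (0.51) were among the rises, though 13.6% of the Taldo1 sequence recurs in a copy. Of 7 fructose-handling genes 1 rose, the aldose reductase Akr1b3 (0.77), and 3 fell, including the sorbitol dehydrogenase Sord (-0.38). Both have copies elsewhere. Slc2a5 itself was a rare transcript, with 45, 40 and 58 counts in the OGD libraries and 1, 2 and 0 in the recovery libraries, a fall of 15.0-fold after scaling for depth (95% exact interval 5.03 to 73.5). In the libraries labelled as knockout it had 17, 4 and 17 counts after OGD and 1, 0 and 0 after recovery, so it was too rare after recovery to check the genotype there.

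Mitochondrial metabolism moved by smaller amounts. Of 14 genes of the tricarboxylic acid cycle 8 rose and 2 fell, and of 22 respiratory chain genes of the nucleus 13 rose and none fell, with a median of 0.30. Fumarase Fh1 was at 31.6, 30.2 and 34.1 CPM after OGD and 55.1, 53.6 and 50.6 CPM after recovery (0.73 ± 0.08, adjusted p = 1.31e-06). Idh3a (0.80) and citrate synthase Cs (0.54) rose, while Pcx, which makes oxaloacetate from pyruvate, fell (-1.05). Among chain subunits, Cox6c (0.76) and Ndufa4 (0.65) rose. Counts of the mitochondrial genome, given above, took a larger share in the same libraries. Without the filter on low counts 5 rather than 8 genes of the tricarboxylic acid cycle rose.

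Protein-folding genes split by member. Of 18 genes of the unfolded protein response, 9 fell and 3 rose. Dnajb9, a co-chaperone induced by endoplasmic reticulum stress (-1.83), and Sel1l of the degradation complex (-1.17) fell. Hspa5, the main chaperone of the compartment, was at 2039, 2319 and 1905 CPM after OGD and 1159, 833 and 749 CPM after recovery (-1.19 ± 0.37, adjusted p = 0.0193), a call that was lost without OGD replicate 2 (-1.1) and without recovery replicate 2 (-1.14) or 3 (-1.08). Pdia4 (0.71) and Xbp1 (0.35) rose, but Pdia4 was not called without recovery replicate 1 (0.54) and Xbp1 not without replicate 3 (0.27). Of 13 heat shock genes 3 rose and 4 fell, with 5 rises under the RLE scaling. Hsph1, a cytosolic chaperone, was at 24.6, 25.1 and 26 CPM after OGD and 49.9, 51.1 and 51.8 CPM after recovery (1.01 ± 0.10, adjusted p = 1.08e-06). The stress-inducible pair Hspa1a (-5.64) and Hspa1b (-4.78) fell, though these 2 genes share most of their sequence and cannot be separated.

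Genes that dispose of damaged protein and organelles were lower. Of 20 autophagy genes 14 fell and 2 rose. Sqstm1, the cargo receptor p62, was at 1227, 1466 and 1183 CPM after OGD and 245, 237 and 241 CPM after recovery (-2.42 ± 0.14, adjusted p = 2.32e-09). The receptors Optn (-2.37) and Tax1bp1 (-1.22) and the conjugation gene Atg12 (-1.08) also fell, while Map1lc3b, which marks autophagosomes and has copies for 12.4% of its sequence, rose (0.61). Of 24 lysosome genes 13 fell and 4 rose, with falls in the proton pump subunits Atp6v1a (-0.96) and Atp6v0d2 (-0.68) and the calcium channel Mcoln1 (-0.67). Gusb rose (0.62).

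Targets of the antioxidant factor NRF2 went both ways, with 5 of 18 higher and 5 lower. Slc48a1, a haem transporter, rose (1.21), as did Prdx1 (1.47), of which 25.3% of the sequence recurs in copies. Gclc, of glutathione synthesis, fell (-1.01). Hmox1, the haem oxygenase, was at 642, 691 and 568 CPM after OGD and 731, 628 and 625 CPM after recovery, and the 2 groups overlapped (0.06 ± 0.13, adjusted p = 0.699).

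Immediate early genes, which respond within minutes to stimulation, were lower in 11 and higher in 6 of 24 members. Fosb was at 8.59, 7.82 and 9.69 CPM after OGD and 0.457, 0.244 and 0.222 CPM after recovery (-4.91 ± 0.36, adjusted p = 3.28e-08). The phosphatase gene Dusp1 (-2.38) and the AP-1 subunits Junb (-2.29), Jun (-1.70) and Fos (-0.63) fell. Egr2 (1.39) and Fosl2 (0.80) rose.

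Interferon-stimulated genes rose. Of 27 members, 23 were higher and none lower, with a median of 1.34, and in the knockout 23 were also higher. The upstream stretches of 4 of them are shown because each holds the letters of the interferon-stimulated response element, searched as GAAA and GAAA with any 2 bases between them, on both strands, here in capitals (RefSeq, GRCm38.p6, 5′ to 3′ along the gene).
Oas3: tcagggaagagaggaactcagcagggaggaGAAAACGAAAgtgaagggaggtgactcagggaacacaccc
Ifit3: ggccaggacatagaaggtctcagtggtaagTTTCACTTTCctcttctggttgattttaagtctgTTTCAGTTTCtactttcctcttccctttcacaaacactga
Stat2: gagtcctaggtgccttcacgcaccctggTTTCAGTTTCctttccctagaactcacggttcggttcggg
Gbp2: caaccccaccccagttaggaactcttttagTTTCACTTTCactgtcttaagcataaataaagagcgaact
They lie at chr5:120777695-120777764 (minus strand), chr19:34583343-34583446 (plus strand), chr10:128270248-128270315 (plus strand) and chr3:142620574-142620643 (plus strand). A match was found in 11 of the 19 members with a RefSeq window and in 3.99% of 27025 genes. The 11 included Isg15 (1.04), Rsad2 (-0.17) and Ifih1 (0.14), which were not called. The match thus did not separate members that rose from those not called. With 8 of 27 members without a window, no share was read for the list.

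Oas3, an enzyme that senses double-stranded RNA, was at 2.51, 2.15 and 1.35 CPM after OGD and 15.6, 20.0 and 7.69 CPM after recovery (2.86 ± 0.33, adjusted p = 1.43e-05). Ddx58, the RNA sensor RIG-I, was at 15.5, 15.2 and 17 CPM after OGD and 47, 57.8 and 44.1 CPM after recovery (1.65 ± 0.11, adjusted p = 1.30e-08). Zbp1, a sensor of left-handed nucleic acid, rose from 5.24 ± 0.176 to 23.4 ± 3.01 CPM (2.16), and the antiviral gene Mx1 from 2.53 ± 0.554 to 8.95 ± 2.27 CPM (1.85). The signalling factor gene Stat2 rose less (0.89). Gbp2 (0.65) and Ifit3 (1.61) rose too, but 56.1% of the Ifit3 sequence recurs in Ifit3b. The summed level of the list was 320 to 338 CPM after OGD and 557 to 854 CPM after recovery, so all recovery libraries were higher.

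Chemokine genes had the highest median of all lists drawn in the plot of gene lists, 2.32. Of 20 tested, 16 rose and 1, Cxcl1, fell (-1.77), a fall that was not called without recovery replicate 3 (-1.4). Ccl2, which draws monocytes, was at 6.51, 6.29 and 9.25 CPM after OGD and 215, 186 and 138 CPM after recovery (4.60 ± 0.21, adjusted p = 2.64e-09). Pf4, a platelet and macrophage chemokine, was at 3.93, 3.95 and 3.83 CPM after OGD and 88.4, 91.6 and 60.1 CPM after recovery (4.36 ± 0.24, adjusted p = 1.98e-08). Ccl9 rose from 262 ± 17.6 to 1270 ± 129 CPM (2.28), and Cxcl3 from 1.27 ± 0.158 to 14.5 ± 5.54 CPM (3.50). In the knockout 14 chemokine genes rose and 2 fell, with a median of 1.38.

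Receptor genes rose with the ligands in 7 of 11 cases and fell in 3. Besides Ccr1l1, the complement receptor C5ar1 was at 15, 14.8 and 13.4 CPM after OGD and 140, 143 and 145 CPM after recovery (3.31 ± 0.16, adjusted p = 1.14e-09). Ccr2, the receptor of Ccl2 and a marker of monocytes, was at 1.93, 1.03 and 1.50 CPM after OGD and 25.6, 26 and 30.0 CPM after recovery (4.18 ± 0.19, adjusted p = 4.46e-10). Ccr1 rose as well (1.80). The 3 that fell were Ccrl2, a chemerin-binding receptor (-2.63), Cxcr4, the receptor of CXCL12 (-1.50), and Cx3cr1, the gene of the reporter (-0.53).

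Cytokine genes were mixed, 8 of 14 higher and 3 lower. Il1b was at 1.27, 1.50 and 1.23 CPM after OGD and 11.1, 17.8 and 12.1 CPM after recovery (3.37 ± 0.26, adjusted p = 4.42e-08). Its antagonist Il1rn was at 48.4, 44.7 and 42.5 CPM after OGD and 240, 156 and 194 CPM after recovery (2.12 ± 0.30, adjusted p = 2.05e-04). Il18 rose (1.73) and Tnf rose less (0.77), whereas Il1a fell (-1.30). Il6 was at 1.49, 1.09 and 0.831 CPM after OGD and 1.14, 0.122 and 0.296 CPM after recovery, the groups overlapped, and it was not called (-1.38 ± 0.97, adjusted p = 0.245). Feedback genes of NF-kB split evenly, 6 of 16 higher and 6 lower: Nfkbid (1.64), Nfkbie (1.14) and Nfkbia (0.89) rose and Nfkbiz fell (-1.54). Of 15 Toll-like receptor genes and partners, 8 rose, among them Tlr2 (0.75), and 3 fell.

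Antigen presentation genes were higher. Of 10 class II genes 8 rose and none fell, with a median of 2.05, whereas 3 rose and 5 fell in the knockout. Cd74, the invariant chain that escorts class II molecules, was at 176, 141 and 146 CPM after OGD and 711, 619 and 799 CPM after recovery (2.20 ± 0.16, adjusted p = 4.31e-08). H2-Ab1, a class II chain, was at 18.5, 14.6 and 15.8 CPM after OGD and 59.5, 49.5 and 72.6 CPM after recovery (1.89 ± 0.21, adjusted p = 6.77e-06). Each recovery library was at least 2-fold above the OGD libraries in both genes. The peptide-loading gene H2-DMa rose too (2.22). In class I, 8 of 10 genes rose by less, with a median of 0.44, among them the immunoproteasome genes Psmb9 (1.24) and Psmb8 (0.71) and B2m (0.47). Without recovery replicate 1 the class I count was 5. Of 7 costimulatory genes 2 rose and 3 fell. Cd80 rose from 6.29 ± 0.351 to 31.4 ± 7.05 CPM (2.30) and Pdcd1lg2, encoding PD-L2, rose too (1.58), while Cd274, encoding PD-L1 (-1.11), Cd83 (-1.51) and Cd86 (-0.69) fell.

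Genes of microglia identity did not move together. Of 21 homeostatic genes 10 rose and 7 fell. P2ry6, a receptor for UDP that drives uptake, was at 17.7, 14.8 and 16.9 CPM after OGD and 96.7, 88.3 and 89.6 CPM after recovery (2.47 ± 0.14, adjusted p = 4.07e-09). Tmem119 (4.12), P2ry12 (1.19), P2ry13 (1.47), Fcrls (1.42) and Selplg (1.38) rose as well. P2ry12, the receptor that steers processes toward ATP, reached 8.56, 11.7 and 12.9 CPM after recovery, and its reads cannot be told apart from those of Med12l. Tgfbr1, the TGF-beta receptor, fell (-1.06).

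Among transcription factors, Sall1, which upholds microglia identity, was at 22, 24.9 and 23.8 CPM after OGD and 4.68, 4.39 and 6.36 CPM after recovery (-2.19 ± 0.14, adjusted p = 7.36e-09). Bhlhe41 (-1.82), Cebpb (-2.11) and Smad3 (-1.48) fell too. Irf4 (2.12) and Tfec (1.24) rose. In the list of 17 factors, 7 rose and 4 fell. The purine receptor list was higher in 10 of 17 genes, P2rx5 included (2.51), a count that was 3 when genes with overlapping bodies were left out, since fewer genes were then tested.

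Disease-associated genes, the set that microglia raise around plaques and dying cells, were higher in 7 and lower in 6 of 24. Spp1, osteopontin, was at 7397, 7749 and 7632 CPM after OGD and 22780, 13490 and 13000 CPM after recovery (1.11 ± 0.18, adjusted p = 1.31e-04), highest in recovery replicate 1. Lpl (0.83) and Cd52 (1.96) rose. The cathepsin genes Ctsl (-0.89), Ctsd (-0.61) and Ctsb (-0.46) and the lipid carrier gene Fabp5 (-0.67) fell, the last with 11.6% of its sequence in copies. Apoe was at 2772, 3142 and 2790 CPM after OGD and 2305, 2799 and 2669 CPM after recovery, and the groups overlapped (-0.16 ± 0.27, adjusted p = 0.625).

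Uptake receptors rose in 13 of 26 genes and fell in 2. Stab1, a scavenger receptor, was at 102, 93.3 and 97.1 CPM after OGD and 920, 594 and 588 CPM after recovery (2.84 ± 0.21, adjusted p = 1.53e-07). Itgam, a chain of complement receptor 3, was at 280, 274 and 303 CPM after OGD and 1982, 1045 and 1005 CPM after recovery (2.23 ± 0.21, adjusted p = 1.64e-06). In both genes recovery replicate 1 was well above replicates 2 and 3, which were still above every OGD library. The inhibitory Fc receptor Fcgr2b (2.15) and Msr1 (1.14) rose, and the integrin Itgb3 (-2.99) and the kinase Mertk (-0.32) fell. Complement genes rose in 8 of 12 and fell in 2, with C3 at 90.3, 88.9 and 94.8 CPM after OGD and 447, 377 and 357 CPM after recovery (2.11 ± 0.11, adjusted p = 9.07e-10) and C1qa, of the recognition complex, higher (1.40).

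Fatty acid synthesis genes rose in 5 of 12 with none falling, a count of 3 without recovery replicate 2 or 3. Elovl6, an elongase, was at 2.24, 2.18 and 3.26 CPM after OGD and 12.6, 14.1 and 13.2 CPM after recovery (2.36 ± 0.15, adjusted p = 9.59e-09), and the desaturase gene Scd2 rose (1.46). In cholesterol synthesis 7 of 20 rose, Pmvk among them (1.16), and 3 fell, led by the sterol sensor gene Insig1 (-1.16). Of 16 genes of lipid efflux and storage, 2 rose and 7 fell. The exporters differed, Abcg1 rising (0.59) and Abca1 falling (-0.61), a fall lost without any 1 of the 3 OGD libraries or without recovery replicate 2 or 3 (-0.65 to -0.48). Npc1 (-1.03) and Nceh1 (-1.06), which free cholesterol from the lysosome and from esters, fell.

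Genes of repair and matrix turnover rose in 16 of 23 and fell in 1, Tgfbr2 (-0.39). Mmp8, a collagenase, was at 28.1, 19.4 and 26.4 CPM after OGD and 506, 364 and 387 CPM after recovery (4.08 ± 0.17, adjusted p = 1.96e-10). Arg1, the arginase, was at 1.27, 0.767 and 0.707 CPM after OGD and 11.1, 11 and 14.9 CPM after recovery (3.75 ± 0.19, adjusted p = 9.61e-10). The protease gene Plau (1.22) and Chil3 (1.81) rose, but 35.5% of the Chil3 sequence recurs, chiefly in Chil4. Growth factors were mixed, 3 of 14 higher and 4 lower, with Gdf15, a stress hormone, at 87.6, 91.2 and 94.1 CPM after OGD and 3.08, 4.46 and 3.40 CPM after recovery (-4.60 ± 0.19, adjusted p = 2.80e-10), Vegfb lower (-1.04) and Pdgfc higher (1.61).

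Genes of DNA replication rose in 18 of 22 and fell in 1, Cdt1 (-0.95), with a median of 0.92, and in the knockout 21 rose and 1 fell, with a median of 1.37. The helicase subunit Mcm3 was at 29.1, 30.6 and 34 CPM after OGD and 52.2, 59.5 and 56.7 CPM after recovery (0.85 ± 0.08, adjusted p = 6.35e-07), and Mcm5 (1.05) and Mcm6 (0.91) rose by like amounts. Mitosis genes rose in 8 of 22 and fell in 1, Kif11 (-0.52), a call lost under 13 of 21 alternatives, with a median of 0.28. A fit of the 6 control libraries alone gave 13 rises. Cdk1 was at 13.9, 16.1 and 17.6 CPM after OGD and 30.1, 32.7 and 30.7 CPM after recovery (0.97 ± 0.12, adjusted p = 5.08e-06), and Birc5 (1.15) and Aurkb (0.79) rose. Mki67 was at 76.2, 69.2 and 87.2 CPM after OGD and 77.1, 85.5 and 79.7 CPM after recovery, and the groups overlapped (0.06 ± 0.13, adjusted p = 0.722). The letters of the cell cycle homology region, TTTGAA or TTCGAA on either strand, were found in 14 of the 18 mitosis genes with a RefSeq window (77.8%). A match was also found in 21.7% of 27025 genes. Mki67, which was not called, and Kif11, which fell, were among the 14. Of 21 genes of the p53 response and apoptosis, 9 rose and 7 fell. The killer gene Bbc3 fell from 24.8 ± 1.32 to 4.59 ± 0.985 CPM (-2.40), as did Gadd45a (-2.79), Gadd45b (-1.45) and Mdm2 (-0.59), while Sesn1 (1.42) and the survival gene Bcl2l1 (0.59) rose.

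Markers of other cell types moved too. All 11 oligodendrocyte markers rose, and their sum went from 156 to 163 CPM after OGD to 299 to 326 CPM after recovery. Sox10, a lineage factor, had 2 counts over the OGD libraries and 332 over the recovery libraries, a 528-fold rise after scaling for depth (95% exact interval 145 to 4378), and Mbp, a myelin gene, rose (1.38). Neuron markers rose in 9 of 11, Rtn1 among them (2.41), and fell in 1, Stmn2, a call lost under 15 of 21 alternatives, with a sum of 24.6 to 36.7 CPM and then 80.6 to 96.1 CPM. Astrocyte markers rose in 3 of 10 and fell in 2, with a sum of 140 to 202 CPM and then 282 to 312 CPM. Cacng4, Lhfpl3 and Brinp1, among the largest rises above, are best known from the oligodendrocyte lineage or neurons, and the part of other cells in them was not tested.

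All 6 monocyte markers tested rose, with a sum of 126 to 198 CPM and then 689 to 1086 CPM, and S100a4 was at 21.6, 16.6 and 20.2 CPM after OGD and 262, 209 and 176 CPM after recovery. The defining monocyte genes Plac8 and Ly6c2 had 0 and 12 counts over the 6 libraries. Border macrophage markers rose in 7 of 9 and fell in 1, with Cd209f at 0 and a sum of 884 to 914 CPM and then 1509 to 2170 CPM. Lyve1 of that list went against the sum, with 65 counts over the OGD libraries and 3 over the recovery libraries. After scaling for depth it was 6.81-fold lower (95% exact interval 2.23 to 33.9). Ccr2, Pf4, Stab1, Chil3 and Fn1 belong both to these marker lists and to lists described above. Dendritic cell markers rose in 4 of 6, with a sum of 658 to 706 CPM and then 683 to 1228 CPM and Siglech at 0. Fibroblast markers rose in 2 of 9, Col3a1 and Dcn, with a sum of 19.6 to 48.4 CPM and then 32.2 to 106 CPM. Endothelial markers rose in 1 of 8, Flt1 (3.29), and fell in 1, Vwf (-0.86), with Cldn5 and Kcnj8 at 0 and a sum of 230 to 255 CPM and then 175 to 283 CPM. Neutrophil markers rose in 1 of 4, S100a8 (1.68), and fell in 2, with S100a9, Ly6g and Retnlg at 0 and a sum of 69.3 to 94.9 CPM and then 49.2 to 58.7 CPM. The single lymphocyte marker tested, Cd4, was not called, and Cd3e, Cd8a and Nkg7 were at 0. The part of these cells in the results above was not tested.

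**Figure D4:**
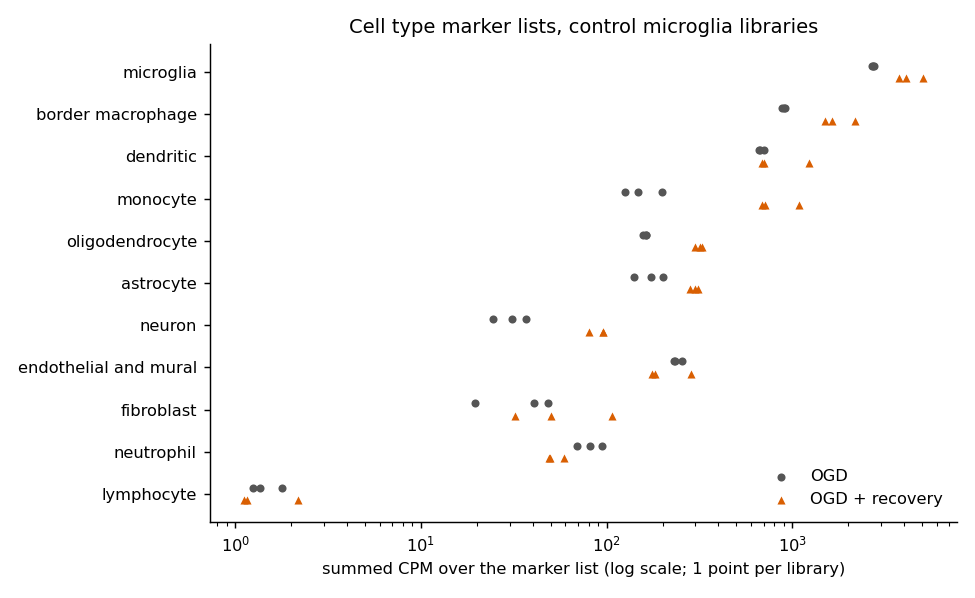
Summed level of each cell type marker list in each control library, in CPM on a log axis. Grey circles are OGD libraries and orange triangles recovery libraries. Microglia, oligodendrocyte, neuron, astrocyte, monocyte and border macrophage sums are higher in all recovery libraries than in any OGD library, and the neutrophil sum is lower.

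Most of the control response was also called in the knockout. Of the genes higher in the control, 3751 (76.9%) were called higher in the knockout, and of those lower, 4250 (78.1%) were called lower, beside a background of 29.3% higher and 29.7% lower there, 59.1% in all. The 2 comparisons share no library. The difference between the recovery changes, tested as an interaction, was called for 934 genes (5.14%), 511 with the higher log2 change in the knockout (2.81%) and 423 with the lower (2.33%). These counts rested on few libraries: leaving out 1 at a time gave 235 to 852 and 219 to 843, lowest without OGD replicate 3 of the control and highest without recovery replicate 3 of the knockout. Class II genes had a median of 2.05 in the control and -0.25 in the knockout, and 4 of 10 members differed by the interaction test. For Cd74 the change was 2.20 in the control and -0.48 in the knockout (adjusted p of the difference = 1.50e-05). Mitosis genes differed in the other direction, with medians of 0.28 and 1.59 and 20 of 22 members called in the interaction. Their sum was 313 to 395 CPM after OGD and 426 to 460 CPM after recovery in the control. In the knockout it was 135 to 201 CPM and then 421 to 458 CPM. The genotypes thus differed in this sum at the end of OGD and overlapped after recovery. The tRNA synthetases had medians of -1.03 and -1.0, and Trib3 changed by -6.20 in the control and -5.47 in the knockout.

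**Figure D5:**
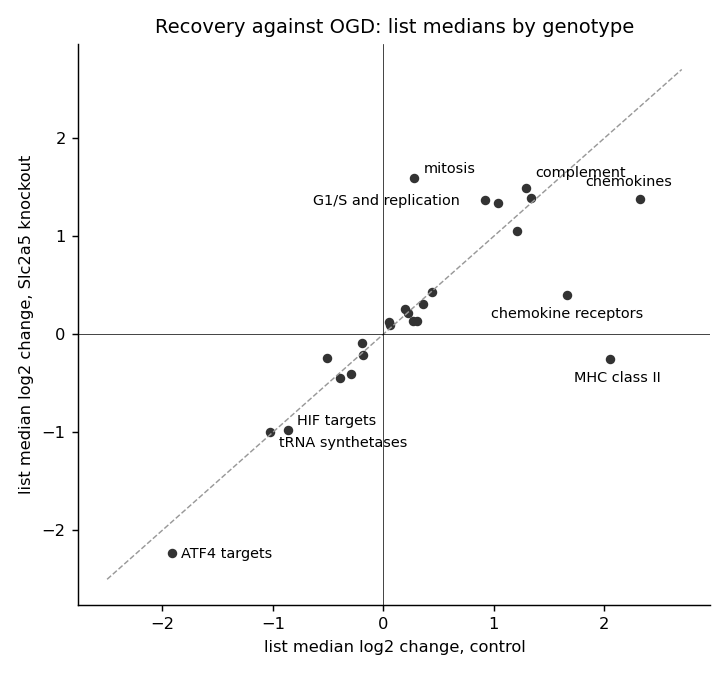
Median log2 change of each gene list from OGD to recovery, in the control on the horizontal and in the Slc2a5 knockout on the vertical axis. Each point is 1 of 25 lists and the dashed line marks equal values. ATF4 targets, HIF targets and tRNA synthetases lie near the line, while class II genes lie below it and mitosis genes above it.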

How the data were processed

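Gene-level read counts of 12 libraries were deposited by the authors as whole numbers, with no normalization. The submitters' processing notes name the build GRCm38, featureCounts and HISAT2. Versions, annotation and counting options are not given in the sources used here. Per the labels, a stranded total RNA kit was used, although the molecule field named polyA RNA. In the table, each gene that encloses another had at least the inner gene's count in all 12 libraries, in 460 of 460 same-strand and 509 of 509 opposite-strand pairs (inner gene of at least 2000 counts), also where no exon was shared (67 of 67 and 151 of 151). Counts thus behaved as taken over whole gene bodies without regard to strand, so overlapping genes are marked as uncertain. So are genes with over 10% of their 40-base words in transcripts elsewhere, 15 of 201 checked, by GENCODE M21.

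Of 55421 genes, 18842 passed filterByExpr of edgeR 4.0.16 (R 4.3.3). Library sizes were scaled by TMM. A robust quasi-likelihood model with 1 mean per group was fitted to all 12 libraries, contrasts were tested, and Benjamini-Hochberg adjustment ran over the 18842 genes. Of these, 608 genes on X, 7 on Y and 62 others that are not autosomal were left out of what is reported. A standard error is the log2 fold change over the root of its F statistic. CPM uses the scaled library size. In simulated data with 200 genes changed 2-fold, 81% were recovered with 5 false calls among 18356 genes run. Far fewer genes were changed there than the 56.8% called in the data, so these figures do not give the error of the reported calls. Each pair of replicates differed by more than sampling noise (chi-square per degree of freedom 6.66 to 60.2), and each library counts as 1 sample. Exact binomial intervals cover counting error only.

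Named genes were, first, the 12 largest rises and falls among called genes with groups apart and at least 10 CPM. Then came up to 4 called genes per list and direction, then a fixed set of 23 genes. Not all are printed, some are not reported here, and Txnip is outside the rule. Dcn, Fn1, Plac8 and other members named to account for a list are also outside it. The 37 gene lists and 11 marker lists and all named genes were chosen with earlier results of these data known. DESeq2 1.42.0, another scaling, no filter, the control libraries alone, a replicate block, thinned counts, and leaving out libraries, mitochondrial or X and Y counts were tried as alternatives. A fit of genes with no overlapping body was added after seeing the data.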

Additional observations from a re-analysis of the deposited data

Results flagged for a closer look

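The recovery change differed between control and knockout, by the interaction term of edgeR's quasi-likelihood model at an adjusted p below 0.05, in 39 of the genes named above. Each value is the log2 change in the knockout less that in the control. The background is 5.14% of autosomal genes. Named genes were chosen largely by their change in the control, which is part of this difference. The count is thus not to be read against the background, and no explanation was weighed.

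Genes of the chemokine system differed in both directions. Ccr1l1 differed by -6.81 (adjusted p = 3.13e-08), and it was not called in the knockout. There it was already at 129.0, 114.7 and 132.3 CPM after OGD and at 155.6, 115.7 and 153.4 CPM after recovery, so its knockout OGD level lay above the control recovery level. Ccl22 (-5.06) and Ccl17 (-4.46, adjusted p = 0.00303) were not called in the knockout either, where Ccl17 stayed between 1.35 and 6.00 CPM in all 6 libraries. Ccr2 (-2.39) and Cxcl3 (-2.11) rose less in the knockout, whereas Ccl2 (1.12), Ccl9 (0.54) and Pf4 (1.81) rose more.

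Of the class II genes, Cd74 and H2-Ab1 rose in the control and fell in the knockout, while H2-DMa rose in both (2.22 and 2.50). For Cd74 the difference was -2.69 (adjusted p = 1.50e-05) and for H2-Ab1 -4.09 (adjusted p = 4.62e-05). H2-Ab1 in the knockout was at 21.3, 10.9 and 17 CPM after OGD and at 3.37, 3.18 and 4.12 CPM after recovery.

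Cell-cycle genes rose more in the knockout, Mcm5 by 1.68 (adjusted p = 6.69e-05), Aurkb by 1.09, Birc5 by 0.85, Cdk1 by 0.69, Mcm6 by 0.63 and Mcm3 by 0.50. Mki67 (0.93) and Kif11 (1.54) rose in the knockout and were respectively not called and lower in the control. The summed mitosis list was lower in the knockout after OGD and overlapped the control after recovery. Mcm3, Mcm5 and Mcm6 were lower after OGD and higher after recovery in the knockout than in the control.

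Among other immune and repair genes, Arg1 (1.96), Chil3 (2.06), Mmp8 (1.21), Fcrls (1.50), Mx1 (1.40), C3 (0.65) and Nfkbid (0.54) rose more in the knockout. Nfkbia (-0.71) and Fos (1.09) were called in the control only, and the fall of Cebpb was larger in the knockout (-0.99). Among metabolic and hypoxia genes, Ddit4 (-0.97) and Hk2 (-0.46) fell more and Ndrg1 fell less (0.82), Txnip rose more (0.48), Elovl6 rose less (-0.93), Taldo1 moved oppositely (-0.82) and Ndufa4 was not called there (-0.78). Genes known from other cell types, Sox10 (-6.05), Nnat (-3.09) and Cacng4 (-2.32), rose less in the knockout, and Flt1 rose more (0.71).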

How the results depend on the processing

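The control counts of 4879 higher and 5443 lower genes stayed within 1.5 times under each alternative chosen at the outset, at 4327 to 5446 higher and 4371 to 5997 lower. Leaving out each library in turn gave 4349 to 5172 higher and 4706 to 5874 lower. Genes with no overlapping body alone gave 2891 and 2927, since fewer genes were tested. With the replicate block the counts were 4696 and 5215. Same-numbered control libraries did not deviate together (r -0.058 to -0.005, 0 of 3 best with their own number). Recovery replicate 1 stood far from replicates 2 and 3 (chi-square per degree of freedom 60.2 and 50.8, against 6.66 between those). It weighs on each deviation in that group, so the check cannot exclude a shared animal or culture.

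The interaction counts of 511 higher and 423 lower depended more on the setting, and the cause was not tested. They were 1018 and 853 without the filter on low counts, 288 and 278 after thinning every library to 1 depth, 686 and 759 with DESeq2, 355 and 269 with the replicate block, and 303 and 291 over genes with no overlapping body. Leaving out each library gave 235 to 852 and 219 to 843.

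Of the named genes, 2 that were not called in the control changed sign when a library was left out: Hmox1 ranged from -0.02 to 0.14 and Mki67 from 0 to 0.16. No called gene changed sign under any alternative run. Without the filter on low counts Il6 (-1.42), Nupr1 (-0.6) and Vldlr (0.51) were called. Nupr1 (-0.52) and Vldlr (0.6) were also called in the fit of the control libraries alone. Depth after recovery limits genes below about 1 CPM.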
